A study of Mus musculus with 16 samples.

Results

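The vascular endothelial growth factor (VEGF) ligands Vegfa, Vegfb and Vegfc, their receptor tyrosine kinases Kdr, Flt1 and Flt4 and the co-receptors Nrp1 and Nrp2 were followed in whole lung and whole cerebellum of neonatal mice given the synthetic glucocorticoid dexamethasone or vehicle. Every probe set whose gene symbol was one of these 8 genes was taken, which gave 21 of the 45101 probe sets on the Affymetrix mouse array. The 4 groups were lung with dexamethasone, lung with vehicle, cerebellum with dexamethasone and cerebellum with vehicle, with 4 arrays each and 16 in all. All mice were C57BL/6J, without a stated mutation, and organs were taken whole at postnatal day 7. Neither the dose nor the timing of dexamethasone, nor the sex or litter of a mouse, is stated in the sources used here. Nothing in the labels says whether the arrays of a group came from separate litters, and each p-value therefore covers only how far these particular arrays differ.

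VEGF ligands are secreted dimers that drive the growth, survival and permeability of blood and lymphatic vessels. Vegfa acts mainly through Kdr, the main signalling receptor of blood vessel endothelium, while Flt1 binds Vegfa and Vegfb tightly, signals weakly and is also made as a soluble form that sequesters ligand. Vegfc acts on Flt4 of lymphatic endothelium, and the neuropilins Nrp1 and Nrp2 hold VEGF ligands next to these receptors and also bind class 3 semaphorins in axon guidance. In the neonatal lung the epithelium supplies Vegfa to the capillaries that grow with the alveoli.

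The promoters of Kdr, Flt1 and Vegfc are shown because probe sets of these 3 genes were called in lung or cerebellum and did not overlap between treatments. Each window is the 250 bases before the start of the gene in RefSeq on build GRCm38.p6, written 5′ to 3′, and capitals mark matches to the motifs searched.
Kdr promoter, chr5:75978456-75978705, minus strand: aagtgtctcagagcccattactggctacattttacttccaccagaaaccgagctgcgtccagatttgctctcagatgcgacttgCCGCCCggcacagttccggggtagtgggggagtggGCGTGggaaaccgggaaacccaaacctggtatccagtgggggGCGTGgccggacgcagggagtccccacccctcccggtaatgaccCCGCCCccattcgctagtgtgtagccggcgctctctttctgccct
Flt1 promoter, chr5:147726012-147726261, minus strand: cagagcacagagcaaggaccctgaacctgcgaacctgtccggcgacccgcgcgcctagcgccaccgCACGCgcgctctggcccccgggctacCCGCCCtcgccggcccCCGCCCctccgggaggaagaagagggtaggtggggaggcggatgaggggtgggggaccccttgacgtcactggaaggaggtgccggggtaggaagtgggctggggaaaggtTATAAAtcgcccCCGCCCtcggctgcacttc
Vegfc promoter, chr8:54077282-54077531, plus strand: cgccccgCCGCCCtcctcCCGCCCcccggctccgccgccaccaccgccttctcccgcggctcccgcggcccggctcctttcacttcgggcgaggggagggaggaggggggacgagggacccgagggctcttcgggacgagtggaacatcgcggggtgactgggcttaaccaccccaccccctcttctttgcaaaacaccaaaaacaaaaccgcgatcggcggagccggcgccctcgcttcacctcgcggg
The motifs, searched on both strands, were the core of hypoxia-inducible factor sites (ACGTG or GCGTG), the GC box (GGGCGG), one arm of a glucocorticoid receptor site (AGAACA) and the TATA box (TATAAA), and matches of different motifs may overlap. All 8 members had a window, matched by symbol, and for Vegfa, which had another one farther downstream, the most upstream was used. GGGCGG was found in 8 of 8 members, against 32.7% of the 32851 windows of the table. GCGTG was found in 5 of 8, Vegfb, Kdr, Flt1, Nrp1 and Nrp2, against 28.2%, and ACGTG in 0 of 8, against 16.6%. The downstream window of Vegfa, not counted here, held both, GCGTG at -218 and ACGTG at -211 from its start. TATAAA was found in Flt1 alone among the members, at position -31 from the start, against 12.4% of all windows. AGAACA was found in 0 of 8, against 16.1% of all windows, which says only that these letters are not in the 250 bases searched. GC content ran from 59.2% to 76.4% in the members, with a median of 52.4% over all windows.

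Values are the authors' log2 expression values, on which a difference of 1 is a change of 2-fold. They were made with RMA, a method that gives every probe set a value whether or not its transcript is detected, so that levels cannot be compared between genes and changes near the floor are understated. The tissues matched their labels: the mean level of the 5 lung markers lay between 12.05 and 12.70 in lung and between 5.24 and 5.66 in cerebellum, and that of the 5 cerebellar markers between 4.46 and 4.81 in lung and between 11.85 and 12.66 in cerebellum. With dexamethasone, 2 of the lung markers rose in lung, Sftpb and Nkx2-1, and 1 cerebellar marker rose in cerebellum, Gabra6 of mature granule neurons. Calls, by the threshold given below, were made for 31.2% of all genes in lung and 4.80% in cerebellum. Nkx2-1 had a low level, averaging 5.97 in lungs with dexamethasone and 5.43 with vehicle, while array medians were 5.87 to 6.00. The array B46 of the lungs with dexamethasone had the lowest array weight of all 16, at 0.264, followed by the cerebellar arrays B39 with dexamethasone, at 0.451, and B79 with vehicle, at 0.59. RNA integrity, read from Gapdh control probes as their 3′ value less their 5′ value, gave 0.446 to 0.708 in lungs with dexamethasone and 0.84 to 1.04 in lungs with vehicle. These Gapdh ranges did not overlap. Actin control probes, read the same way, gave 0.451 to 0.642 and 0.611 to 0.667 in the same groups, which overlapped. Of the cerebella, B81 with vehicle was highest on both controls, at 0.518 for Gapdh and 0.942 for actin. The part of RNA integrity in the results was not tested. Xist, transcribed in females, was above 9 in 3 of 4 and 1 of 4 of these lung groups, and in 2 of 4 and 1 of 4 cerebella with dexamethasone and with vehicle.

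All 3 receptors, both co-receptors and 2 of the 3 ligands were higher in lung than in cerebellum of vehicle mice, while Vegfb was higher in cerebellum. By limma across all genes, with the Benjamini-Hochberg adjusted p under 0.05 as the threshold for a call, 7 of 8 members were higher and 1 lower in lung, and 57.7% of the 18193 genes tested were called in this comparison. Lung and cerebellum did not overlap for 8 of 8 members, as for 56.4% of all genes. The median log2 difference was 2.32 over the members and 0.0018 over all genes. Each gene is given here by its brightest probe set, that is, the one whose mean over the arrays was highest.

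Among receptors, Kdr averaged 11.24 ± 0.19 in vehicle lung and 8.35 ± 0.10 in vehicle cerebellum (SD, n = 4 each), a log2 difference of 2.88 ± 0.15 (standard error, limma adjusted p = 2.14e-11). Flt1 differed by 2.36 ± 0.12 and Flt4 by 2.69 ± 0.15. Nrp1 averaged 11.75 ± 0.13 in lung and 8.74 ± 0.29 in cerebellum, and at 8.02-fold its difference was the greatest of the 8 on these probe sets. Nrp2 was 4.01-fold higher in lung, with cerebella from 7.09 to 8.32.

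Among ligands, Vegfa differed by 2.27 ± 0.12 between vehicle lung and vehicle cerebellum, at 9.97 ± 0.14 and 7.70 ± 0.30 (SD, n = 4 each). Vegfc differed by 0.59 ± 0.18 on its brightest probe set (limma adjusted p = 0.00861). It averaged 8.17 in vehicle lung and 7.37 in vehicle cerebellum on 1419417_at, and 8.12 and 7.15 on 1440739_at. Vegfb, a ligand of Flt1 and Nrp1 known for its role in heart and fat tissue, averaged 8.08 ± 0.07 in lung and 9.25 ± 0.11 in cerebellum and was thus 2.25-fold lower in lung. For every probe set of the 8 genes, the vehicle lungs and vehicle cerebella did not overlap, against 51.6% of all probe sets without overlap, and all 21 were called, 20 of them higher in lung. Over all probe sets 53.2% were called in this comparison.

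**Figure D1:**
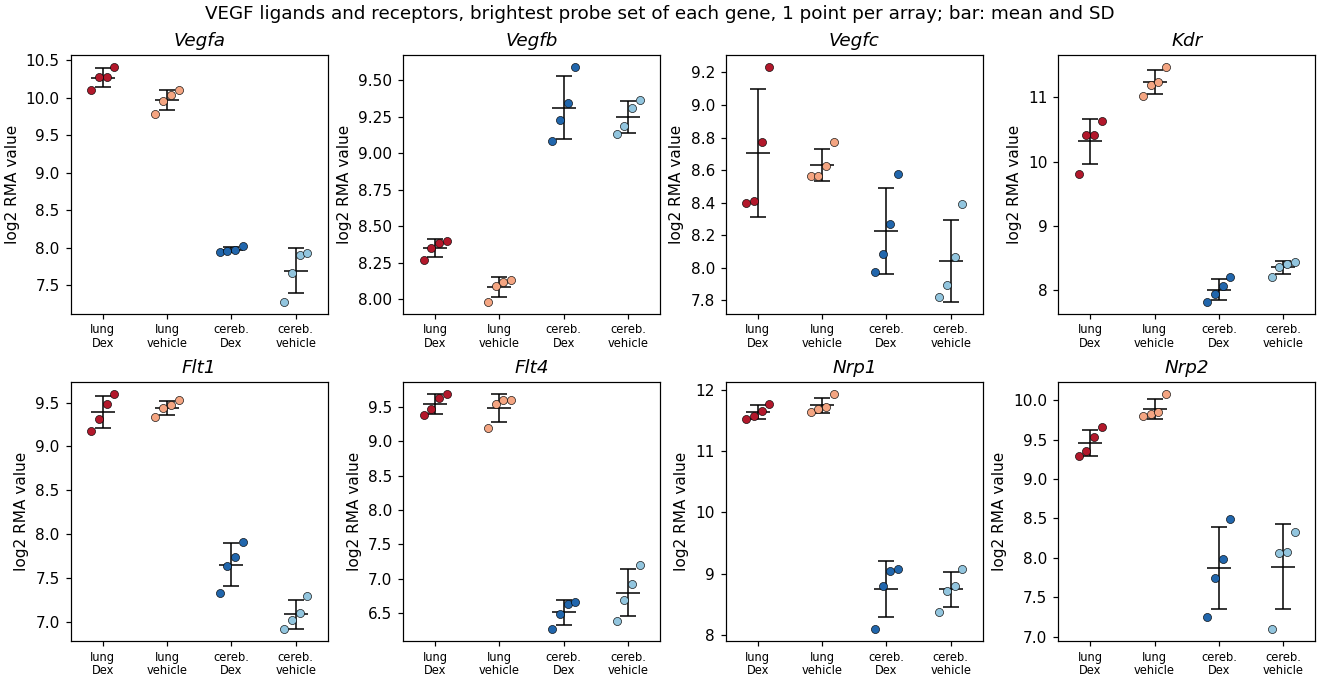
The log2 RMA value of each of the 8 genes on every array, by the brightest probe set of the gene, with lung with dexamethasone, lung with vehicle, cerebellum with dexamethasone and cerebellum with vehicle from left to right; crossbars give the mean and SD of 4 arrays. Kdr was lower in all 4 lungs with dexamethasone than in all 4 with vehicle, and Flt1 was higher in all 4 cerebella with dexamethasone than in all 4 with vehicle.

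In lung, Kdr fell with dexamethasone and the other 7 members were not called on their brightest probe sets, so 1 of 8 was called by limma, against 31.2% of all genes in this comparison. At an unadjusted p under 0.05, 2 were higher, Vegfa and Vegfb, and 1 was lower. The groups did not overlap for 3 of 8 members, Kdr, Vegfb and Nrp2, against 30.6% of all genes. The median log2 difference was 0.0043 over the members and 0.048 over all genes. With each probe set fitted on its own, 1 of 21 was higher and 3 were lower, and 26.8% of all probe sets were called. Separate ranges were seen for 5 of 21 probe sets, against 26.9% of all.

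Kdr, measured by a single probe set, was 10.41, 10.63, 10.41 and 9.81 in lungs with dexamethasone (B28, B31, B40 and B46), against 11.20, 11.48, 11.03 and 11.23 in lungs with vehicle (B12, B14, B19 and B22). The groups did not overlap, and B46 was the lowest. Kdr fell 1.89-fold, with a log2 difference of -0.92 ± 0.15 (95% confidence interval -1.23 to -0.61, limma adjusted p = 0.000163). Without B46 the difference was -0.75, and it was still called without any one of the 16 arrays (adjusted p 9.01e-05 to 0.000879). In these whole organs fewer cells of a type and less RNA per cell cannot be told apart.

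Flt1 was not called in lung on its brightest probe set, 1451756_at, at 9.39 ± 0.18 with dexamethasone and 9.44 ± 0.08 with vehicle (SD, n = 4 each). Another probe set of the gene, 1419300_at, was 8.55, 8.85, 8.89 and 8.70 with dexamethasone, against 9.00, 9.19, 9.06 and 9.19 with vehicle. These groups did not overlap, and the log2 difference was -0.36 ± 0.10 (limma adjusted p = 0.00894 over all probe sets). The other 2 probe sets of Flt1 had 0.16 ± 0.16 and 0.34 ± 0.16, neither of them called. Flt4 had 0.06 ± 0.15, with a 95% confidence interval of -0.27 to 0.38. Its other probe set, 1421442_at, averaged 6.59 in lungs with dexamethasone and 6.38 with vehicle and was not called.

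The brightest probe sets of the ligands Vegfa and Vegfb were higher with dexamethasone but missed the threshold. Vegfa, on 1420909_at, was 10.28, 10.28, 10.41 and 10.10 with dexamethasone, against 10.10, 10.03, 9.79 and 9.95 with vehicle, so the groups met at 10.10. The log2 difference was 0.30 ± 0.12 (limma adjusted p = 0.0806). On its other probe set, 1451959_a_at, Vegfa was 9.76, 9.78, 9.93 and 8.84 with dexamethasone, against 8.92, 9.13, 8.95 and 8.89 with vehicle. Here B46 lay below every vehicle lung and the other 3 above them all, and the rise was called at 0.60 ± 0.20 (limma adjusted p = 0.0317). Without B46 the log2 difference was 0.85, and without B28, B31, B40, B12, B19 or B22 the call was lost, with an adjusted p of up to 0.0981.

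Vegfb was 8.38, 8.40, 8.35 and 8.27 in lungs with dexamethasone, against 7.98, 8.12, 8.09 and 8.13 in lungs with vehicle. The groups did not overlap. The log2 difference of 0.27 ± 0.10 had a limma adjusted p of 0.05002, just above the threshold, and Vegfb was called, with an adjusted p of 0.0122 to 0.0494, under 6 alternatives and without B39, B52 or B46. Vegfc, the lymphatic ligand, had 0.07 ± 0.18 (95% confidence interval -0.30 to 0.45), with B46 the highest of its lungs on all 3 of its probe sets.

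Among co-receptors, Nrp2 was 9.36, 9.66, 9.53 and 9.29 in lungs with dexamethasone, against 9.83, 9.86, 9.81 and 10.08 in lungs with vehicle. The lung groups did not overlap, but with the spread pooled over both tissues the log2 difference of -0.43 ± 0.25 was not called (limma adjusted p = 0.206). The cerebellar groups varied far more, with SDs of 0.52 and 0.54 against 0.17 and 0.13 in lung, and in a fit of the lung arrays alone Nrp2 was called lower (adjusted p = 0.0171). Of the other Nrp2 probe sets, 1456778_at ran from 8.77 to 9.09 in lungs with dexamethasone and from 9.10 to 9.20 with vehicle, without overlap. The lung groups overlapped on 1426528_at, averaging 9.07 and 9.40, and on 1447343_at, averaging 6.18 and 6.41. None of these was called.

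Nrp1 was not called on its brightest probe set, 1448943_at, at 11.64 ± 0.11 with dexamethasone and 11.75 ± 0.13 with vehicle (SD, n = 4 each). Of its other 3 probe sets, 1457198_at was 8.74, 8.19, 7.82 and 8.79 with dexamethasone, against 10.26, 10.24, 8.40 and 9.64 with vehicle, where B19 lay within the range of the treated lungs. Its log2 difference was -1.25 ± 0.32 (limma adjusted p = 0.00712), and -1.66 without B19. The other 2 had -0.37 ± 0.19 and 0.02 ± 0.18, neither called.

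In cerebellum, Flt1 rose with dexamethasone on its brightest probe set, and 1 of 8 members was called by limma, against 4.80% of all genes in this comparison. At an unadjusted p under 0.05, 2 were higher, Flt1 and Vegfa, and 1 was lower, Kdr. The groups did not overlap for these 3 of 8 members, against 12.6% of all genes. The median log2 difference was 0.038 over the members and 0.0068 over all genes. With each probe set fitted on its own by limma, 3 of 21 were higher and 0 lower, 2 of them belonging to Vegfc, and 4.05% of all probe sets were called. At an unadjusted p under 0.05, 5 probe sets were higher and 2 were lower, that of Kdr and 1419300_at of Flt1. Separate ranges were seen for 6 of 21 probe sets, against 11.4% of all.

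Flt1, on 1451756_at, was 7.91, 7.33, 7.75 and 7.63 in cerebella with dexamethasone (B39, B49, B50 and B52), against 7.10, 7.02, 6.92 and 7.30 in cerebella with vehicle (B78, B79, B80 and B81). The groups did not overlap, and B49 and B81 were closest, at 7.33 and 7.30. Flt1 rose 1.48-fold, a log2 difference of 0.57 ± 0.12 (95% confidence interval 0.30 to 0.83, limma adjusted p = 0.0134), with an adjusted p between 0.00558 and 0.0494 when any single array was left out. In the fit of all probe sets its call was lost without B50, B79 or B80 (adjusted p up to 0.058). With the 4 probe sets of the gene averaged the call was lost, at 0.09 (adjusted p = 0.765).

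The 4 probe sets of Flt1 did not move together in cerebellum. On 1419300_at the values were 6.17, 6.06, 6.03 and 6.02 with dexamethasone, against 6.25, 6.43, 6.26 and 6.47 with vehicle, lower in every treated cerebellum although not called (log2 difference -0.28 ± 0.10, limma adjusted p = 0.122). The remaining 2 had 0.34 ± 0.16 and -0.25 ± 0.16, not called. The difference of 1419300_at minus 1451756_at on the same array averaged -1.58 ± 0.22 with dexamethasone and -0.73 ± 0.12 with vehicle in cerebellum (SD, n = 4 each; exact permutation test, two-sided p = 0.0286, adjusted 0.149). In lung it averaged -0.65 ± 0.14 with dexamethasone and -0.33 ± 0.07 with vehicle (exact permutation p = 0.0286, adjusted 0.149). The other pairs of Flt1 with 1451756_at had opposite signs in the organs. For 1454037_a_at minus 1451756_at, dexamethasone minus vehicle was -0.82 in cerebellum (exact permutation p = 0.0286, adjusted 0.149) and 0.39 in lung (exact permutation p = 0.143, adjusted 0.413). For 1440926_at it was -0.23 in cerebellum and 0.21 in lung. These are 6 of 26 such differences computed within the members. Over all 26, 5 reached 0.0286, the smallest p that 4 against 4 arrays allow. They were the Flt1 differences given above with that p and both Vegfc differences in cerebellum (exact permutation p = 0.0286, adjusted 0.149). Which part or which form of the Flt1 transcript a probe set reads is not given in the tables used here.

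The 3 probe sets of Vegfc were all higher in treated cerebella on average, by unequal amounts. Its brightest probe set, 1439766_x_at, was not called (0.18 ± 0.18), and the suffix x marks probes shared with other transcripts. On 1440739_at Vegfc was 7.79, 8.20, 7.87 and 8.56 in cerebella with dexamethasone, against 6.93, 7.28, 6.87 and 7.53 with vehicle, without overlap. It rose by 0.95 ± 0.18 on the log2 scale (limma adjusted p = 0.0068), with a call under the removal of any single array. On 1419417_at it was 7.79, 8.17, 7.83 and 8.66 with dexamethasone, against 7.17, 7.57, 7.33 and 7.41 with vehicle, again without overlap, and rose by 0.74 ± 0.20 (limma adjusted p = 0.0413). That call was lost without any one of 11 arrays (adjusted p up to 0.119). B52 was the highest and B39 the lowest of the treated cerebella on both.

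**Figure D2:**
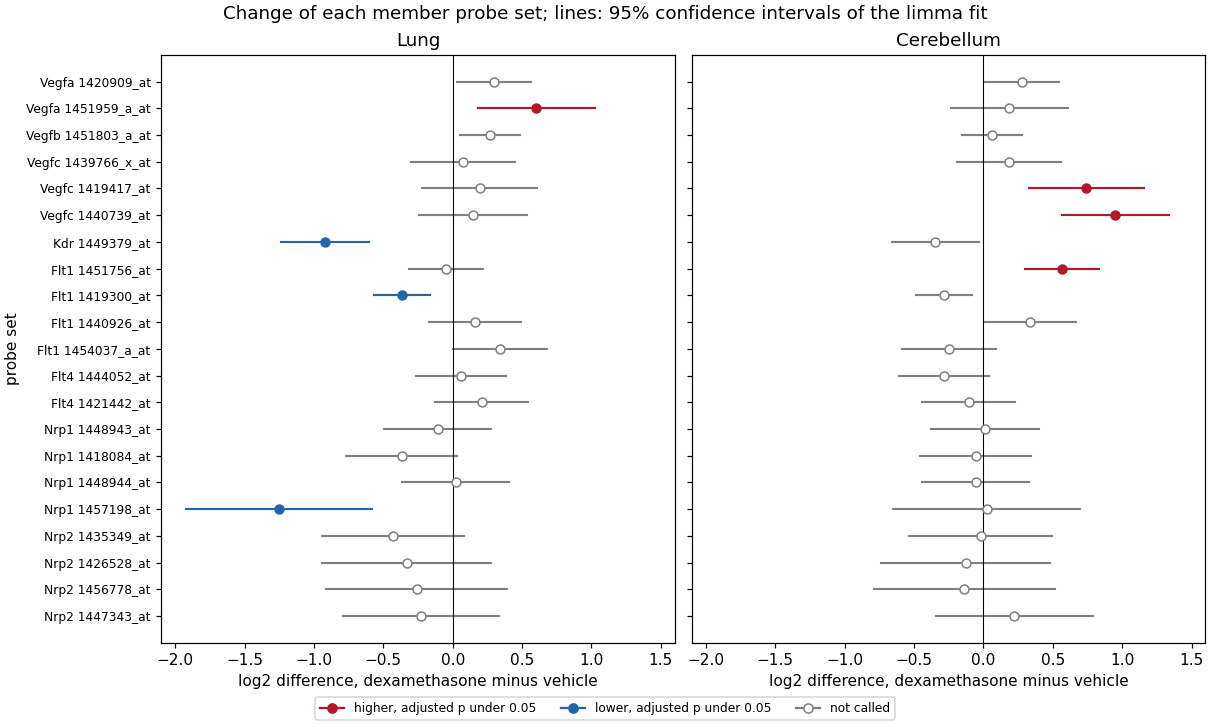
The log2 difference of dexamethasone minus vehicle (horizontal axis) for each of the 21 probe sets (rows), in lung on the left and cerebellum on the right; lines are 95% confidence intervals of the limma fit and filled points have an adjusted p under 0.05 over all probe sets. In lung Kdr, 1 probe set of Flt1 and 1 of Nrp1 were lower and 1 of Vegfa was higher, and in cerebellum 2 of Vegfc and 1 of Flt1 were higher.

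Kdr was lower in each treated cerebellum than in each vehicle cerebellum, at 7.82, 8.20, 7.94 and 8.06 with dexamethasone, against 8.21, 8.44, 8.36 and 8.40 with vehicle. The nearest values of the groups, 8.20 in B49 and 8.21 in B78, almost met. The log2 difference of -0.35 ± 0.15 was not called (95% confidence interval -0.66 to -0.03, limma adjusted p = 0.232). Vegfa, on its brightest probe set, was 7.96, 7.95, 8.02 and 7.97 with dexamethasone, against 7.91, 7.28, 7.66 and 7.93 with vehicle. The treated values lay close together just above the vehicle range, and the difference of 0.28 ± 0.12 was not called (limma adjusted p = 0.263). On 1451959_a_at of Vegfa the cerebellar groups overlapped, and the difference of 0.19 ± 0.20 was not called (limma adjusted p = 0.765 over all probe sets).

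The remaining members were not called in cerebellum. Flt4 had a log2 difference of -0.29 ± 0.15 (95% confidence interval -0.61 to 0.04) and Vegfb 0.06 ± 0.10 (-0.15 to 0.28). Nrp1 had 0.01 ± 0.18 (-0.38 to 0.40) and Nrp2 -0.02 ± 0.25 (-0.54 to 0.50). Nrp2 varied most of the 8 among arrays of both cerebellar groups: it ran from 7.24 in B52 to 8.50 in B39 with dexamethasone, and from 7.09 in B79 to 8.32 in B81 with vehicle. B52 and B79 were also the lowest of their groups for Nrp1, at 8.10 and 8.38.

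The difference between organs was tested as an interaction, the lung effect minus the cerebellum effect of dexamethasone. Flt1, on 1451756_at, differed by -0.62 ± 0.18 (limma adjusted p = 0.0193), and 1 of 8 members was thus called, against 21.3% of all genes in this comparison. With the probe sets of Flt1 averaged, the difference was -0.072 and not called (adjusted p = 0.774). Kdr differed by -0.57 ± 0.21 and was not called (adjusted p = 0.0634), but it was called with dim genes left out, a variance trend or array weights (adjusted p 0.0229 to 0.0463) and without B39, B31 or B19 (0.0269 to 0.0489), so this call depended on the setting. Of the 21 probe sets, 1440739_at of Vegfc differed as well, by -0.81 ± 0.26 (limma adjusted p = 0.0418), a call lost without any one of 10 arrays, while 17.0% of all probe sets were called.

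**Figure D3:**
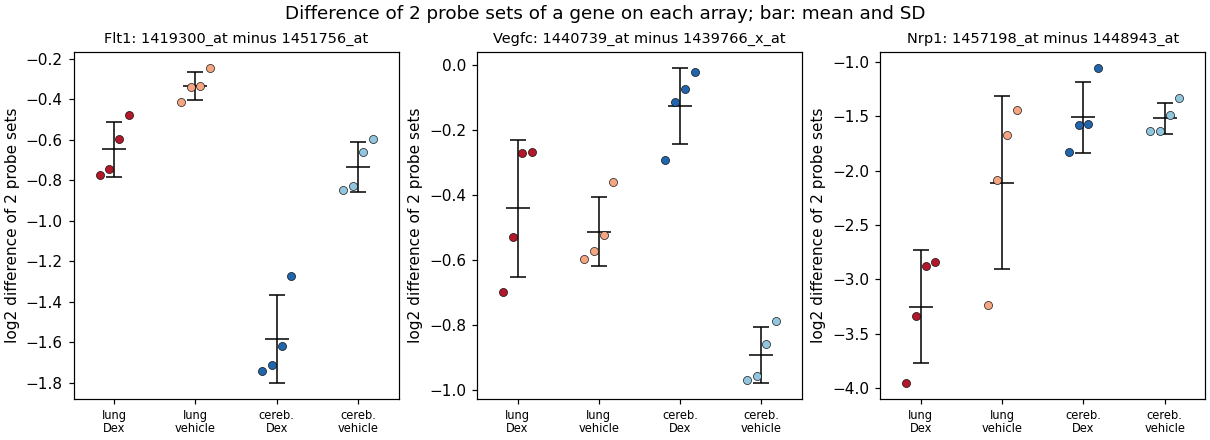
The log2 difference of 2 probe sets of the same gene on each array (vertical axis), for Flt1, Vegfc and Nrp1, with the dexamethasone group left of the vehicle group of each organ; crossbars give the mean and SD of 4 arrays. For each gene the pair shown was chosen because it had the largest change with dexamethasone in either organ. The difference for Flt1 averaged -1.58 in cerebella with dexamethasone and -0.73 in cerebella with vehicle, and that for Vegfc -0.12 and -0.89. For Nrp1 it averaged -3.25 in lungs with dexamethasone and -2.11 in lungs with vehicle (exact permutation p = 0.0857, adjusted 0.371).

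The order of the groups differed between members. For Kdr the order was vehicle lung, treated lung, vehicle cerebellum and treated cerebellum, and no neighbouring groups overlapped. For Flt1 on 1451756_at the lung groups overlapped, followed by treated cerebella and then vehicle cerebella without overlap. For Vegfa, Flt4, Nrp1 and Nrp2 both lung groups lay above both cerebellar groups without overlap. Vegfb ran the other way, with both cerebellar groups, which overlapped, above treated lungs and then vehicle lungs. For Vegfc on its brightest probe set the treated cerebella overlapped both lung groups. B52, at 8.578, exceeded the treated lungs B28 and B31, at 8.41 and 8.40, and the vehicle lungs B14 and B19, at 8.564 and 8.565.

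Of the other ligands of the family, both were called in lung and 0 of 2 in cerebellum, where 0 had an unadjusted limma p under 0.05. Over all genes 31.2% were called in lung and 4.80% in cerebellum. Vegfd, a ligand of Flt4 in mice, averaged 9.42 in lungs with dexamethasone and 10.50 in lungs with vehicle and fell 2.11-fold (limma adjusted p = 0.000365). Pgf, placental growth factor, which binds Flt1, averaged 8.16 and 7.45 in the same groups and rose 1.63-fold (limma adjusted p = 0.00324). In cerebellum Vegfd had 0.29 ± 0.19 at a mean level of 4.52 with dexamethasone and 4.23 with vehicle, near the floor, and Pgf had -0.09 ± 0.16. The effect on Pgf differed between organs by 0.80 in the interaction (limma adjusted p = 0.0213), while for Vegfd its low level in cerebellum leaves that comparison without meaning.

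Of 12 class 3 semaphorins and plexins, which are the other ligands and partners of neuropilins, 3 rose and 3 fell in lung and 1 rose and 0 fell in cerebellum. Calls in either direction were made for 31.2% of all genes in lung and 4.80% in cerebellum. The median log2 differences were -0.23 and 0.09, against 0.048 and 0.0068 over all genes. In lung Plxnd1, a plexin of endothelial cells, fell 2.25-fold, Sema3g fell 1.45-fold, Sema3a rose 1.43-fold and Sema3d rose by 0.58 on the log2 scale (limma adjusted p 0.000239 to 0.0178). In cerebellum Plxna2 rose 1.34-fold (limma adjusted p = 0.0147).

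Of 23 measured transducers of VEGF receptor signals, 6 rose and 5 fell in lung, and 1 rose and 1 fell in cerebellum. The shares of all genes called were 31.2% in lung and 4.80% in cerebellum. In lung Rcan1, an inhibitor of calcineurin that Vegfa is known to induce in endothelium, fell 2.30-fold. Nos3, the endothelial nitric oxide synthase, fell 1.77-fold, Plcg1, the phospholipase that binds activated Kdr, fell 1.38-fold, and the small heat shock protein Hspb1 rose 2.14-fold (limma adjusted p 1.03e-06 to 0.00101). In cerebellum the adaptor Nck1 rose 1.97-fold and the kinase Mapkapk2 fell 1.46-fold (limma adjusted p = 4.11e-05 and 0.00285).

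The hypoxia-inducible factors are known to induce Vegfa. Of 10 genes of these factors and their regulators, 2 rose and 2 fell in lung, where 31.2% of all genes were called, namely Hif3a (2.88-fold) and the prolyl hydroxylase Egln2 (1.20-fold) up, and Arnt2 (4.22-fold) and Vhl (1.39-fold) down. Of 11 measured hypoxia-responsive genes other than Vegfa, 5 rose and 0 fell in lung, with a median log2 difference of 0.77. Bnip3 rose 2.46-fold, the glucose transporter Slc2a1 2.38-fold, Ddit4, which glucocorticoids also induce, 2.15-fold and the prolyl hydroxylase subunit P4ha1 1.70-fold (limma adjusted p 4.63e-05 to 0.004). On B46 the mean level of these responsive genes was 9.59, against 8.85 to 9.00 in the other lungs with dexamethasone and 8.34 to 8.60 in lungs with vehicle. In cerebellum limma called 0 of the 10 and 0 of the 11, with 1 higher and 1 lower in each list at an unadjusted p under 0.05 and medians of -0.0089 and 0.097; Hif1a and Epas1 had -0.16 ± 0.10 and -0.32 ± 0.16, and Pgk1 and Ldha 0.01 ± 0.09 and 0.09 ± 0.08.

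Markers of the cells that carry these receptors moved as well, and their part in the results above was not tested. Of 17 pan-endothelial genes, 8 fell and 0 rose in lung, where 31.2% of all genes were called. The mean level of the list there was 10.06 to 10.20 with dexamethasone and 10.38 to 10.63 with vehicle. In cerebellum 10 fell and 0 rose, against 4.80% of all genes called. The mean level was 6.59 to 6.80 with dexamethasone and 7.26 to 7.62 with vehicle. The list's median log2 difference was -0.34 in lung and -0.69 in cerebellum, beside -0.92 and -0.35 for Kdr. Emcn and Tie1 fell 2.09-fold and 1.94-fold in lung, where Mmrn2 and Cdh5 fell 1.96-fold and 1.46-fold, and in cerebellum Tek, Cdh5, Esam and Clec14a fell 2.38-fold, 2.16-fold, 1.58-fold and 2.66-fold (limma adjusted p 3.09e-05 to 0.00162). In lung, Eng, Egfl7 and Clec14a had 0.21, 0.07 and 0.04 on the log2 scale, none of them called. In treated cerebella Flt1 was higher on 1451756_at, while 1419300_at had -0.28 and the mean of the gene's probe sets 0.09, neither called. How Flt1 relates to the endothelial genes was not tested.

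Among markers of lung capillaries, 4 of 5 of the general type fell and 1 rose, with mean levels of 10.66 to 11.07 with dexamethasone and 11.60 to 11.81 with vehicle. This count and those below stand against 31.2% of all genes called in lung and 4.80% in cerebellum. The apelin receptor Aplnr fell 5.47-fold, Kit 2.20-fold and Cd93 1.44-fold, while Gpihbp1 rose 1.47-fold (limma adjusted p 1.68e-06 to 0.00419). Of 6 markers of aerocytes, the alveolar capillary cells known for high Kdr in mice, 2 fell and 1 rose: Fibin and Tbx2 fell 1.82-fold and 1.69-fold and Emp2, which is not restricted to these cells, rose 1.48-fold (limma adjusted p 7.65e-05 to 0.00252). Of the rest, Car4 had 0.47, Ednrb 0.10 and Apln -0.66 on the log2 scale, none of them called. In cerebellum 2 of 5 general markers fell and 0 rose, Aplnr 3.40-fold and Cd93 1.80-fold. Of the 6 aerocyte markers 1 fell there and 0 rose, Emp2 at 1.44-fold (limma adjusted p 4.9e-05 to 0.004 for these genes). The others were not called in cerebellum. Plvap had 0.44, Kit 0.22 and Gpihbp1 0.12 on the log2 scale. Apln had 0.41, Car4 0.35, Fibin 0.28, Tbx2 -0.16 and Ednrb -0.31. Of 7 pericyte genes, 4 fell and 1 rose in lung and 5 fell and 0 rose in cerebellum. Kcnj8 rose 1.61-fold in lung and fell 1.47-fold in cerebellum (limma adjusted p = 0.00126 and 0.0312). Anpep had 0.38 and Abcc9 -0.26 on the log2 scale in lung, neither called. The receptor Pdgfrb fell 2.54-fold in lung and 1.65-fold in cerebellum, Rgs5 1.79-fold and 1.61-fold and Notch3 1.88-fold and 1.38-fold, while Cspg4 fell 3.01-fold in lung and Abcc9 1.69-fold in cerebellum (limma adjusted p 4.79e-08 to 0.00732).

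Of 4 measured lymphatic endothelial genes, 2 rose in lung, Reln 5.49-fold and Mmrn1 3.69-fold (limma adjusted p = 2.9e-08 and 3.14e-05), beside an uncalled Flt4. Of all genes, 4.80% were called in cerebellum and 31.2% in lung. The lymphatic transcription factor Prox1 had 0.17 and the hyaluronan receptor Lyve1 0.38 there, neither called. In cerebellum limma called 0 of 4, with 1 lower at an unadjusted p under 0.05, and Lyve1 had -0.20 and Reln -0.05. Reln is also a product of cerebellar granule neurons, at a mean of 12.80 in cerebella with dexamethasone and 12.85 in cerebella with vehicle. Of 8 alveolar type 1 genes, 5 rose and 0 fell in lung, with mean levels of 12.18 to 12.43 with dexamethasone and 11.67 to 11.80 with vehicle. This epithelium is known as a source of Vegfa in mice. Aqp5 rose 2.21-fold, Rtkn2 1.98-fold, Hopx 1.70-fold and Clic5 by 0.59 on the log2 scale (limma adjusted p 3.05e-05 to 0.000181). In cerebellum Clic5 alone was called, 1.26-fold higher (limma adjusted p = 0.0286). Its mean level there was near the floor, at 4.69 with dexamethasone and 4.35 with vehicle.

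**Figure D4:**
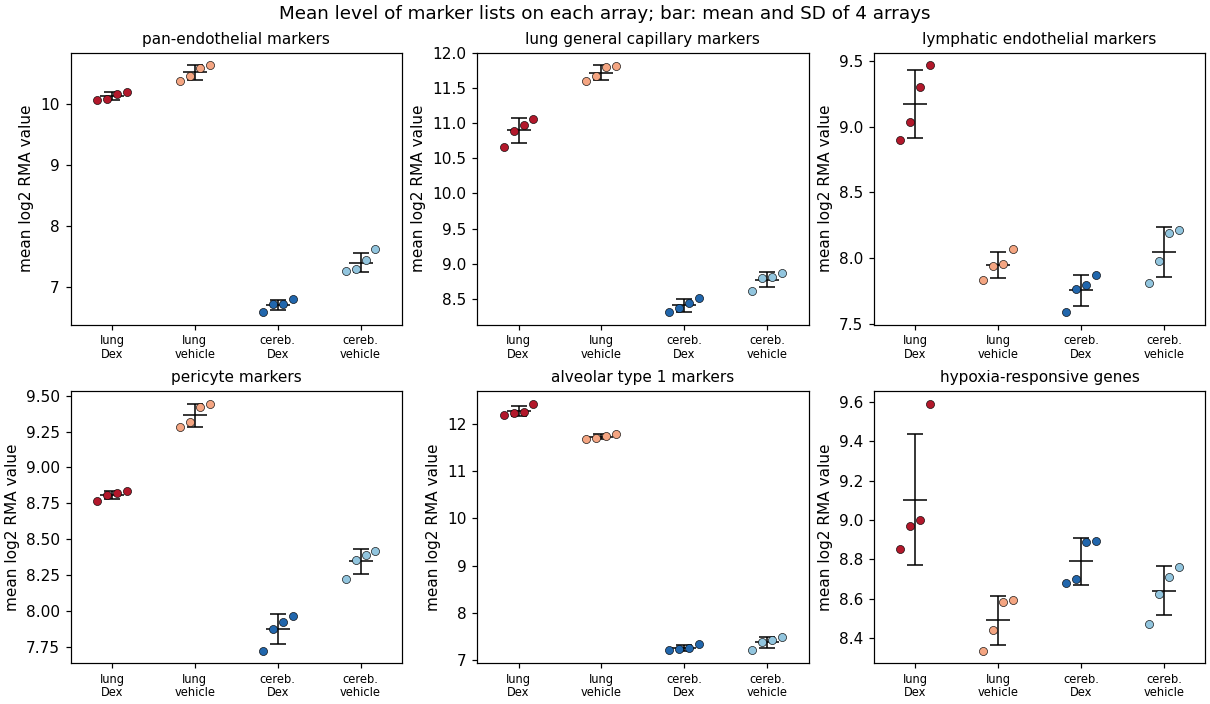
The mean log2 RMA value of 6 gene lists on each array (vertical axis), with the dexamethasone group left of the vehicle group of each organ; crossbars give the mean and SD of 4 arrays. Pan-endothelial and pericyte lists were lower with dexamethasone in both organs without overlap, and lymphatic, alveolar type 1 and hypoxia-responsive lists were higher with dexamethasone in lung.

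Likeness between genes was measured as Pearson's r over the 16 arrays after the mean of each organ was subtracted, among 9095 genes brighter than the median gene, and is a description of arrays that share treatment. The genes most like Kdr were Nfix, Hsd11b2 and Cdk6, with r of 0.979, 0.976 and 0.959. For Nrp2 they were Sema3e, Bmper and Arhgap24 (0.945, 0.94 and 0.936), and for Flt1 Pex26, Gfod2 and Metap1 (0.91, 0.902 and 0.881). For Vegfa they were Etnk1, Arf3 and Acsl3 (0.917, 0.886 and 0.882), for Vegfb Rac3, Bcr and Fads3 (0.914, 0.906 and 0.903), and for Vegfc Zfp598, Ctdp1 and Kdm3a (0.86, 0.858 and 0.851). For Flt4 they were Kank2, Stat6 and Cdv3 (0.875, 0.85 and 0.828). Those most like Nrp1, Meis2, Vamp1 and Gng4 (0.874, 0.856 and 0.844), followed it over the 8 cerebellar arrays, at 0.916, 0.909 and 0.929, and less closely over the 8 of lung, at 0.45, 0.35 and 0.15.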

How the data were processed

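RNA of each organ was hybridised to an Affymetrix array, 16 arrays in all. The values are on the log2 scale as deposited, made by the authors with RMA per the submitters' processing notes; no version of RMA and none of its settings were found in the sources. Symbols of 34945 probe sets with 1 gene were updated through RefSeq and controls were left out. The brightest probe set, by the mean of all arrays, stood for each of 18193 genes. The number of arrays limits the precision, since intensities carry no counts.

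Genes, and separately all such probe sets, were fitted in R 4.3.3 by limma 3.58.1 with 4 group means, a shared spread (12 residual degrees of freedom), eBayes and Benjamini-Hochberg adjustment over all of them. The members, the lists and the naming rule were chosen with earlier results of these data known. The rule took in every member and every probe set, not all of which are described for each comparison. From each list it named at most 4 called genes ranked by adjusted p (otherwise its 2 brightest). It also named the 3 genes most like each member. Some further genes of the pan-endothelial, general capillary, aerocyte, pericyte, lymphatic and astrocyte lists were named outside this rule. The lists covered VEGF signalling, hypoxia, endothelium, lung capillaries, lymphatics, pericytes, alveolar epithelium, astrocytes, macrophages and both organs. The fit was tested on simulated data. Pairs of probe sets were compared by an exact permutation test, chosen after the data were seen. Alternatives were other probe set summaries, a filter on dim genes, renewed normalization, fits of the contrasted arrays only, a variance trend, array weights, an Xist covariate and the removal of single arrays, which for single probe sets was added after the data were seen.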

Additional observations from a re-analysis of the deposited data

Results flagged for a closer look

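Of 84 sets of 4 values (21 probe sets in 4 groups), 6 had 1 array far from the other 3, and chance alone gives about 1 in 20. Vegfa on 1451959_a_at was 6.929 in B52, against 7.36 to 7.407 in the other cerebella with dexamethasone. On the same probe set B46 had 8.84, against 9.755 to 9.931 in the other lungs with dexamethasone. B46 also stood apart for Vegfc on 1440739_at, at 8.708 against 8.075 to 8.147. The vehicle lung B19 was low for Flt4 on 1444052_at, at 9.188 against 9.55 to 9.61, for Nrp2 on 1426528_at, at 9.175 against 9.462 to 9.489, and for Nrp2 on 1447343_at, at 5.601 against 6.63 to 6.763.

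The effect of dexamethasone on Flt1 differed between lung and cerebellum by -0.618 on the log2 scale (lung minus cerebellum, limma adjusted p = 0.0193), on the brightest of its 4 probe sets.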

How the results depend on the processing

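No paired analysis was possible because the groups share no replicate numbers. Members called numbered 1 in cerebellum, 1 in lung and 1 for the difference between organs. With probe sets averaged they numbered 0, 3 and 0; with every probe set fitted on its own 2, 4 and 2. In lung the count was 2 with dim genes left out, and 3 after quantile or cyclic loess normalization, on the lung arrays alone or with array weights; for the difference it was 2 with dim genes left out, a variance trend or array weights. Leaving out single arrays gave 1 to 1, 1 to 2 and 1 to 2. The lung additions were Vegfb (adjusted p 0.0122 to 0.0494), Vegfa and, on the lung arrays alone, Nrp2; that for the difference was Kdr, called without B39, B31 or B19. All 8 stayed called between organs. Genes called in cerebellum numbered 874, 1699 with array weights and 528 to 1229 with single arrays left out, with 528 without B50 and 557 without B79; between vehicle organs 10497, and 6931 with dim genes left out. Uncalled members changed sign in cerebellum: Nrp1 to -0.020 (probe sets averaged), -0.027 (quantile), -0.081 (array weights), -0.0017 (Xist covariate), -0.057 and -0.056 (1418084_at, 1448944_at), and Nrp2 to 0.22 (1447343_at). Flt1, called there, was -0.28 and -0.25 on 1419300_at and 1454037_a_at. In lung Flt1 was 0.022 (averaged), 0.017 (cyclic loess), 0.16 and 0.34 (1440926_at, 1454037_a_at), Vegfc -0.069 and Flt4 -0.0093 (array weights), and Nrp1 0.021 (1448944_at). The difference between organs was 0.59 for Flt1 on 1454037_a_at and 0.077 for Nrp1 on 1448944_at. With single arrays left out, cerebellar differences ran from -0.03 to 0.14 for Vegfb, -0.11 to 0.23 for Nrp1 and -0.28 to 0.19 for Nrp2; lung ones from -0.10 to 0.18 for Vegfc, -0.12 to 0.023 for Flt1 and -0.042 to 0.11 for Flt4; and differences between organs from -0.057 to 0.16 for Vegfa, -0.29 to 0.0062 for Vegfc and -0.34 to 0.0028 for Nrp1. The causes were not tested.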

Other observations

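Other cell types of both organs were read from the remaining lists. Their counts stand beside 31.2% of all genes called in lung and 4.80% in cerebellum. Of 5 measured alveolar type 2 genes, 3 rose and 0 fell in lung: the surfactant proteins Sftpa1 and Sftpb by 0.70 and 0.68 on the log2 scale and the lipid transporter Abca3 1.30-fold (limma adjusted p 0.000208 to 0.0364). In cerebellum limma called 0, and 0 had an unadjusted p under 0.05, with -0.04 ± 0.16 for Sftpc and 0.14 ± 0.13 for Abca3. Of 8 macrophage and microglial genes, 5 rose and 2 fell in lung and 0 rose and 2 fell in cerebellum. The integrin Itgam, shared with neutrophils, rose 4.66-fold in lung, Cd68 2.68-fold and Tyrobp 2.29-fold, and Aif1 fell 1.69-fold there (limma adjusted p 5.19e-06 to 0.00205). In cerebellum Cd68 and Tyrobp fell 2.41-fold and 1.81-fold (limma adjusted p = 0.0249 and 0.00153). Of 8 astrocyte genes, 1 rose and 0 fell in cerebellum, the aldolase Aldoc at 1.63-fold (limma adjusted p = 0.0123). At an unadjusted limma p under 0.05, 1 was lower there, Gfap at -0.63 ± 0.27 on the log2 scale. The median over the list in cerebellum was 0.044. In lung, where these genes do not mark astrocytes, 5 rose and 1 fell, among them Aldh1l1 at 2.70-fold, the water channel Aqp4 at 2.09-fold and Aldoc at 1.55-fold higher and S100b at 2.83-fold lower (limma adjusted p 4.07e-07 to 0.00405).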
